A study of Caenorhabditis elegans with 14 samples.

Results

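Small RNAs against genes were compared between 2 libraries of hrde-1;HC125, a strain that carries a Psid-1::gfp array and a mutated hrde-1, and 4 libraries of the non-array lines, in which hrde-1 is wild type and the array is absent. The 6 libraries are 6 of the 12 libraries with a column in the deposited table, of 14 libraries in the series. They were chosen by their labels alone, so no measured value decided which library entered.

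All animals were C. elegans young adults, synchronised by timed egg lay. The mutant animals are labelled hrde-1;HC125 (strain HC995, n = 2). The labels do not name the hrde-1 allele. The non-array animals are labelled as strain HC83, at generation F6 with sid-1 silenced (n = 2) and at generation F21 with sid-1 no longer silenced (n = 2), and the 4 libraries were pooled as 1 group. Set beside them were HC125, which carries the array with wild-type hrde-1 (n = 4), and the wild-type strain N2 (n = 2). The comparison asks which differences that go with loss of HRDE-1 are seen against hrde-1 wild-type animals other than the parent strain of the mutant. hrde-1;HC125 differs from the non-array lines in the hrde-1 mutation, in the array and in strain history at once, and within this comparison these cannot be told apart. HC125 values are therefore given beside many of the results. Labels do not say whether libraries of a group came from separate cultures, so p-values measure the spread between these samples, which may be technical.

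HRDE-1 is an Argonaute protein of germline nuclei. In C. elegans, RNA-dependent RNA polymerases copy target transcripts into secondary small RNAs, and Argonautes bind them. HRDE-1 carries such small RNAs into the nucleus, where chromatin at the matching gene is marked by H3K9 methylation, and silencing can pass to later generations. The libraries measure small RNAs counted at a gene, not its messenger RNA, and no source used here gives the strand setting of the counting.

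The 2 mutant libraries held 6379388 and 3881568 reads of 21 to 26 nt at genes, against 3203182 and 3716646 in the F6 pair and 3758704 and 514814 in the F21 pair. So 5 of the 6 libraries were deep and F21 replicate 2 was shallow. HC125 held 451389 to 3741687 reads and N2 held 470115 and 847628. A count of 3 came to 0.503 CPM in the deepest of the 6 libraries and to 5.83 CPM in F21 replicate 2, where CPM is the count per 1e+06 counts after TMM scaling. Of 10470 genes with enough counts to test, 51 were under the filter level of 3.99 CPM in every library outside hrde-1;HC125. They entered through the mutant libraries alone and 50 of those were called higher, so they could hardly have come out otherwise. The filter needs 2 libraries, so genes above that level in a lone other library also relied on the mutant and are not in this count.

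Small RNAs at hrde-1 itself (III:4172337-4176159, minus strand, WBcel235) came to 471 and 540.3 CPM in hrde-1;HC125, against 982 and 1016 CPM at F6 and 989 and 966 CPM at F21. Both mutant libraries lay below all 4 non-array libraries, and HC125 (839 to 1273 CPM) and N2 (816 to 861 CPM) stayed above the mutant as well. The gene fell (log2 fold change -0.97 ± 0.16, adjusted p = 0.000196; ± SE, edgeR quasi-likelihood test, Benjamini-Hochberg adjusted over all genes tested, as throughout). Values by which a gene rose or fell are on the log2 scale throughout. Small RNAs at hrde-1 do not check the mutation, since they measure neither its sequence nor its protein.

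sid-1 encodes the double-stranded RNA channel of systemic RNAi and is the endogenous gene silenced in this series. At sid-1 (V:5119970-5126916, plus strand) small RNAs came to 557 and 506 CPM in hrde-1;HC125, against 4732 and 4159 CPM at F6 and 731 and 801 CPM at F21. The mutant libraries lay below every other library, HC125 (2031 to 2542 CPM) and N2 (786 to 836 CPM) included. The pooled group is mixed here, with F6 far above F21, and the difference from the pool was -2.30 ± 0.81 (log2) with adjusted p = 0.0827, which missed the threshold of 0.05. Against F6 alone the log2 fold change was -3.06 (adjusted p = 2.94e-10), and against F21 alone it was -0.52 (adjusted p = 0.0264). With F6 and F21 as groups of their own and their mean as reference it was -1.79 (adjusted p = 3.47e-08). Leaving out F21 replicate 1 or F21 replicate 2 also brought the pooled test past the threshold, at -2.62 (adjusted p = 0.0242) and -2.59 (adjusted p = 0.0326). DESeq2 gave -2.27 (adjusted p = 0.0091).

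**Figure D1:**
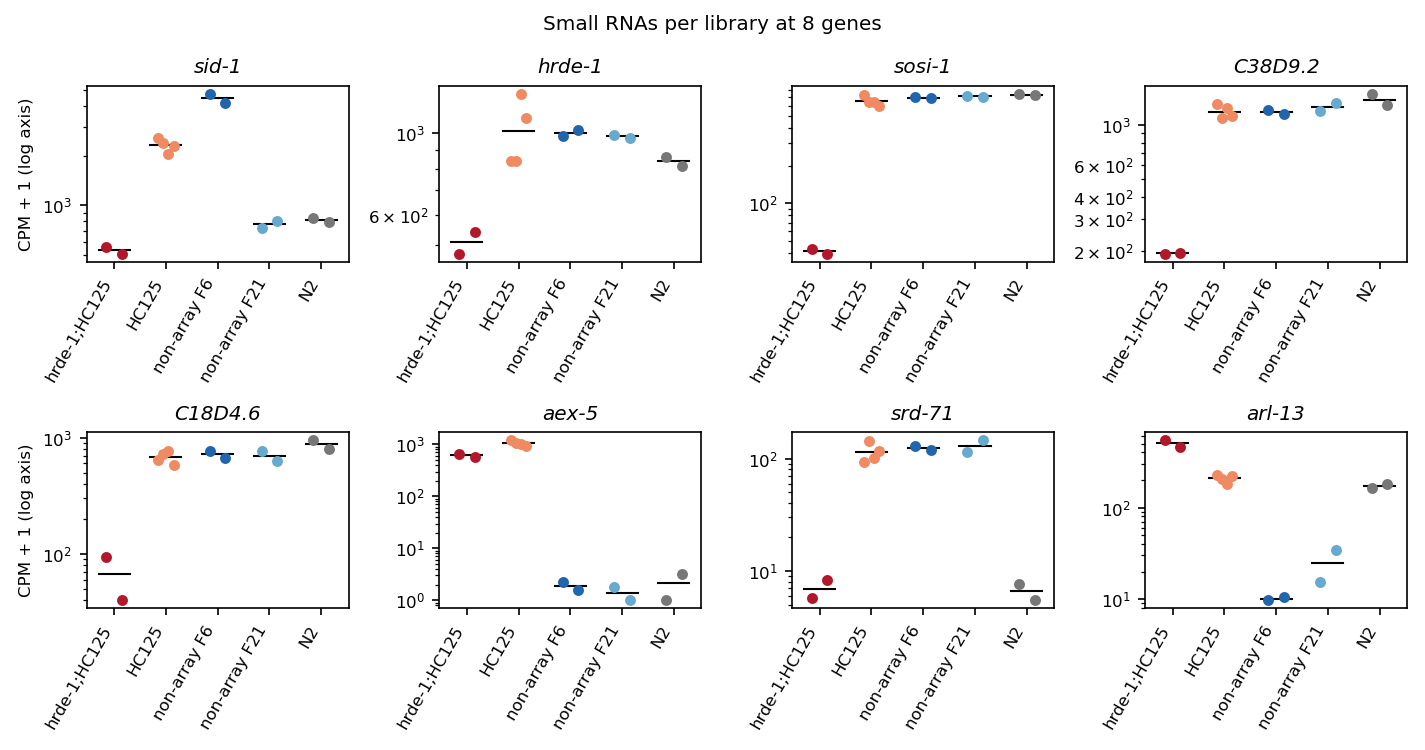
Small RNAs at 8 genes in CPM + 1 on log axes, 1 point per library and a line at each group mean, with hrde-1;HC125 left of HC125, the non-array lines at F6 and F21, and N2. At sosi-1, C38D9.2 and C18D4.6 the 2 mutant libraries sit alone below the rest, at aex-5 they sit below HC125 and far above the non-array lines, at srd-71 they sit with N2, and at arl-13 the 4 non-array libraries are the low ones.

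Small RNAs changed at a large part of the genes tested. Of 10470 genes, 2223 (21.2%) were called, 945 higher (9.03%) and 1278 lower (12.2%) in hrde-1;HC125 than in the non-array lines. The median log2 fold change over all genes tested was 0.03. The called changes were often large, with 601 genes more than 2-fold higher and 862 more than 2-fold lower. More than 8-fold changes were seen at 176 higher and 180 lower genes. Genes called higher held 32.9% and 32.2% of all counts in the mutant libraries, against 15.4% to 15.5% in the non-array libraries. Genes called lower held 11.4% and 10.7%, against 27.6% to 28.5%. The 10 most abundant genes of a library took 11.6% and 11.7% of counts in the mutant, against 6.46% to 6.73% in the non-array lines.

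The number of calls depended on the libraries in the fit. With only the 6 libraries of the comparison, 1559 genes were called higher and 1738 lower. Without hrde-1;HC125 replicate 1 the counts were 534 and 805, and without hrde-1;HC125 replicate 2 they were 618 and 755. In these last fits the lone mutant library was assumed to vary like the other groups.

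**Figure D2:**
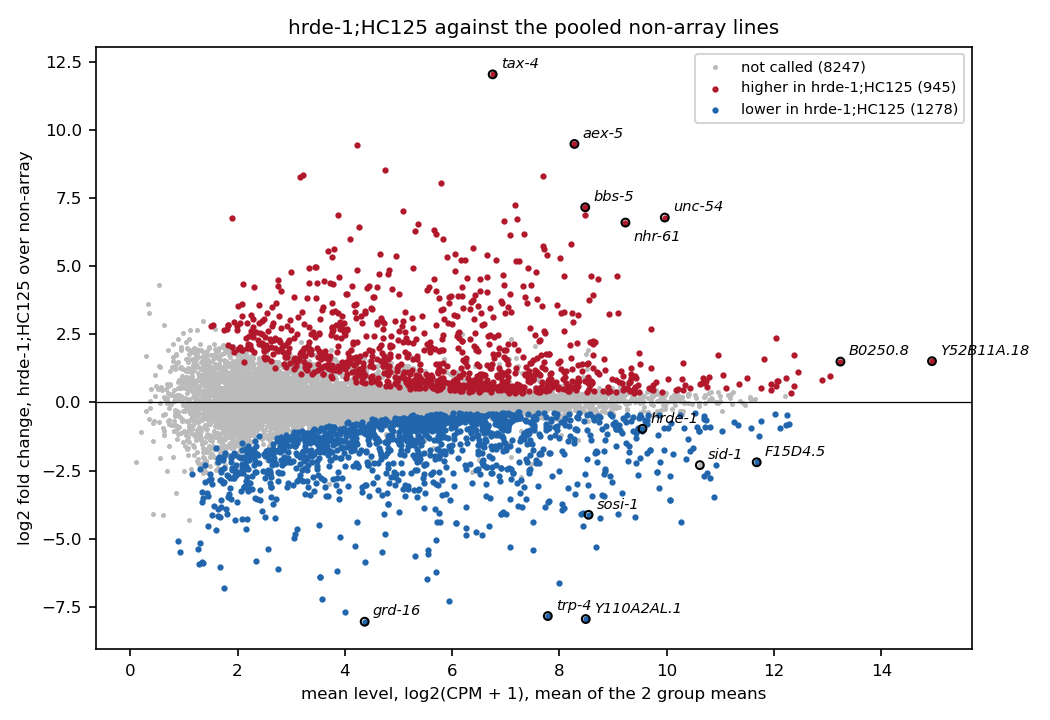
Log2 fold change of hrde-1;HC125 over the pooled non-array lines against mean level, 1 point per gene, with the 945 genes called higher in red, the 1278 called lower in blue and the other 8247 in grey. Large changes occur in both directions, and hrde-1, sosi-1 and F15D4.5 lie among the lower genes while Y52B11A.18 and B0250.8 are abundant genes that were higher.

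Most of these differences held against every hrde-1 wild-type library. Among genes called higher, 769 (81.4%) had both mutant libraries above all 10 other libraries, and among genes called lower, 929 (72.7%) had both below all 10. Over all genes tested, whatever their call, 12.7% lay above and 10.6% lay below all 10. Some of the called genes outside all 10, unc-54 among them, also had HC125 apart from the non-array lines, as given below. A further 157 called genes lay outside the non-array and HC125 libraries but overlapped N2, and 158 lay outside the non-array and N2 libraries but overlapped HC125. The remaining called genes were 152 outside the non-array range only and 58 that overlapped the non-array libraries. HC125 against the same non-array lines, a comparison that shares those libraries, gave 48 called genes (0.458%), 21 higher (0.201%) and 27 lower (0.258%). DESeq2 gave 237 for it, no low-count filter gave 112, and a fit of 8 libraries without N2 and without HC125 replicates 1 and 2, chosen after seeing the data, gave 333. Without F6 replicate 2 it was 16, without F6 replicate 1 it was 22 and without hrde-1;HC125 replicate 2 it was 28.

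The largest rises against all 10 other libraries were at genes with almost no small RNAs elsewhere. At tax-4, a subunit of the cGMP-gated channel of sensory neurons (III:9181546-9185888), the mutant libraries held 221 and 207 CPM, against 0 counts in the 4 non-array libraries, which is at least 791-fold higher if the 4 libraries together are set to 3 counts. The next gene along the chromosome, ZC84.7 (III:9186022-9192984), held 39.7 and 31.0 CPM and again 0 counts in the non-array lines, at least 133-fold higher. The tax-4 call was lost under DESeq2 (adjusted p = 0.052), where its log2 fold change was 11.31. C07G1.7 (IV:8210906-8211847) had 52.3 and 51.2 CPM in the mutant and 1 count over the 4 non-array libraries, a ratio of 571 with a 95% counting interval from 102 to 22591. These bounds and intervals cover counting error only.

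Other genes in this class had a few counts in several wild-type libraries. bbs-5, a subunit of the BBSome that moves cargo in cilia (III:10258831-10261782), held 749.6 and 665 CPM in the mutant, against 6.45 and 4.93 CPM at F6 and 3.75 and 3.89 CPM at F21 (log2 fold change 7.15 ± 0.22, adjusted p = 3.66e-13). HC125 held 0 to 6.66 CPM, so its 4 libraries lay with the non-array lines. wrt-5, which encodes a Hedgehog-related protein, rose by 7.23 ± 0.24 and Y61A9LA.7 by 8.29 ± 0.25 on the log2 scale. ZK228.3 and ZK228.10, which lie next to each other on V, rose by 8.04 ± 0.41 and 7.03 ± 0.52. The 8 genes were picked from those where both mutant libraries stood above the 10 others. Of these, tax-4, ZC84.7, C07G1.7, Y61A9LA.7, wrt-5 and ZK228.10 stayed under the test's filter level of 3.99 CPM in the 10 others. They entered the test through the mutant libraries alone, so their calls could hardly have come out otherwise. The same holds for ZK228.3, which outside the mutant passed that level only in N2 replicate 2 (5.61 CPM), since the filter needs 2 libraries.

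The largest falls came close to complete loss. At trp-4, which encodes a mechanosensory channel (I:13899085-13914008, plus strand), the mutant libraries held 1.84 and 1.89 CPM, against 448 and 430.3 CPM at F6 and 411 and 457 CPM at F21. HC125 (428 to 521 CPM) and N2 (504 to 689.9 CPM) were at the non-array level or above it, and the gene fell (log2 fold change -7.83 ± 0.23, adjusted p = 2.99e-13). Y110A2AL.1 (II:2875101-2876768) held 3.35 and 2.16 CPM, against 639.6 to 759 CPM in the non-array lines (log2 fold change -7.94 ± 0.24, adjusted p = 2.99e-13). Y38F2AR.12 fell by 6.63 and E02H9.9 fell by 6.46 on the log2 scale.

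grd-16, a Hedgehog-related gene, had 1 count over both mutant libraries and 459 counts over the non-array libraries, a ratio of 404 in favour of the non-array lines (95% counting interval 72.1 to 15978). The chemoreceptor gene srt-69 had 1 count in the mutant and 356 in the non-array libraries, and the pseudogene ZK218.8 had 1 and 252. Another pseudogene, Y73B3A.7 on X, held 1.01 and 0.27 CPM in the mutant, against 112 to 128 CPM in the non-array lines.

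**Figure D3:**
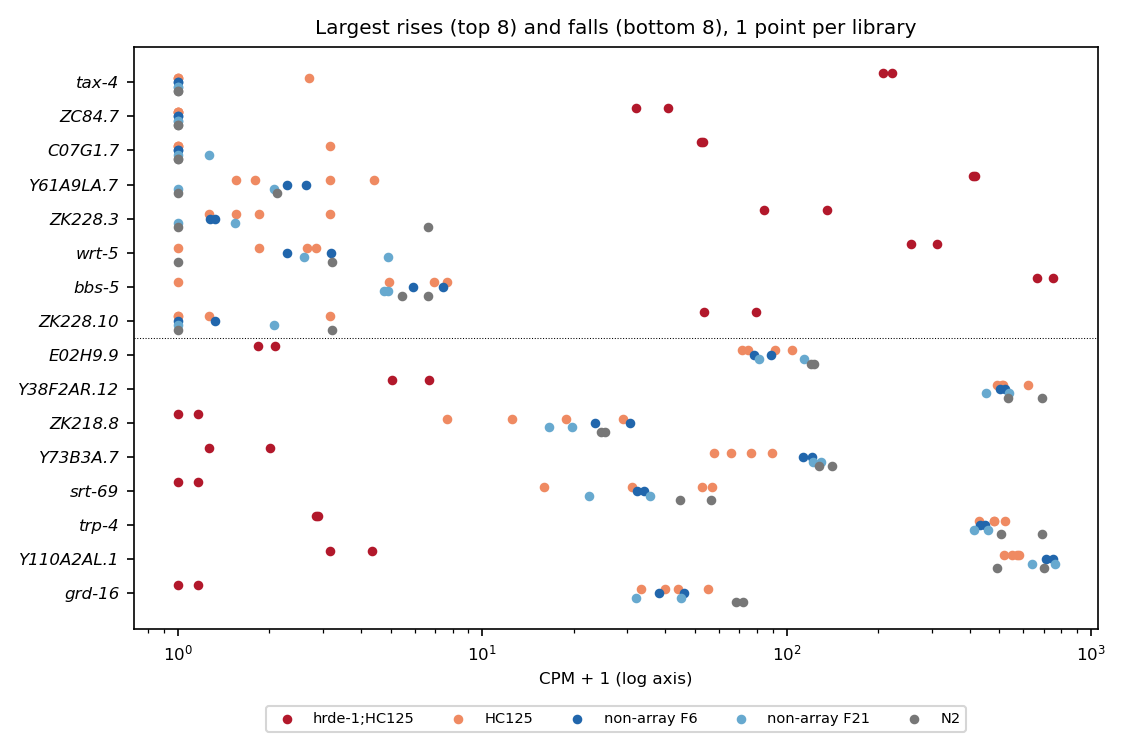
CPM + 1 on a log axis for the 8 largest rises and the 8 largest falls among genes outside the range of the 10 other libraries, 1 point per library. Mutant libraries (dark red, top row of each gene) stand apart from HC125, the non-array lines and N2, for example at 749.6 and 665 CPM against 3.75 to 6.45 CPM in the non-array lines for bbs-5. The genes were picked for this, and the rises other than bbs-5 entered the test through the mutant libraries alone.

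A smaller class had HC125 on the mutant's side of the non-array lines. It overlaps the genes outside the range of the 10 other libraries, and unc-54, arl-13 and pry-1 are in both. For 235 called genes (62 higher, 173 lower) all 4 HC125 libraries lay on that side and the mutant was nearer to HC125 than to the non-array lines or within its range. That rule also lets in genes such as Y110A2AL.1, where HC125 lay slightly below the non-array lines and the mutant far below both. With the mutant required to lie within the range of HC125, a rule chosen after seeing the data, 57 genes were left, 21 higher and 36 lower. Without F21 replicate 2 the wider count was 400.

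aex-5, a proprotein convertase gene (I:14850052-14855827, minus strand), was the clearest of these. It held 661 and 576 CPM in hrde-1;HC125 and 947 to 1187 CPM in HC125, against 0 to 1.29 CPM in the non-array lines, while N2 held 0 to 2.24 CPM. Both array groups were higher than the non-array lines, by 9.48 ± 0.24 in the mutant (adjusted p = 5.2e-14) and by 10.24 in HC125 (adjusted p = 7.57e-15). unc-54, the muscle myosin heavy chain gene whose 3′ end is widely used in C. elegans reporter vectors, is the neighbour of aex-5 (I:14855901-14863482) on the same strand, and the annotated genes do not overlap. It held 2705 and 1249.6 CPM in hrde-1;HC125 and 843 to 1031 CPM in HC125, against 8.56 to 23.9 CPM in the non-array lines. The log2 fold changes were 6.78 ± 0.44 for the mutant and 5.71 for HC125. Both mutant libraries lay above all 4 HC125 libraries. Which sequences the array holds was not analysed here.

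arl-13, a ciliary small GTPase gene, showed a different order. It held 539 and 462 CPM in the mutant and 180.4 to 224 CPM in HC125, against 8.71 to 33.0 CPM in the non-array lines, and N2 held 164 to 178 CPM. Here the non-array lines were the low group, below N2 as well as below both array groups. sph-1 rose by 4.69 ± 0.35 with HC125 (3.4 to 6.45 CPM) only slightly above the non-array lines (0 to 2.9 CPM). Among falls, pry-1, the Axin gene of Wnt signalling, held 6.54 and 7.01 CPM in the mutant and 155 to 205 CPM in HC125, against 214 to 294 CPM in the non-array lines. K08D10.13 fell by 5.40 on the log2 scale, with HC125 at 49.5 to 57.9 CPM and the non-array lines at 62.2 to 102 CPM.

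Genes of small RNA pathways were grouped into lists drawn from general knowledge of the field. The list of 8 nuclear RNAi and WAGO-class targets, genes whose small RNAs are bound by Argonautes of the WAGO class, mostly showed losses. Of the 8, 6 were lower, 1 was higher and 1 was not called, with a median log2 fold change of -1.20, beside 12.2% lower and a median of 0.03 over all genes. sosi-1 (I:4460146-4462704, minus strand) held 42.1 and 38.6 CPM in the mutant, against 699 and 689 CPM at F6 and 716 and 709.6 CPM at F21 (log2 fold change -4.12 ± 0.14, adjusted p = 1.21e-12). C38D9.2 (V:17567150-17571742), a known target of germline nuclear RNAi, held 192 and 193 CPM, against 1219 and 1157 CPM at F6 and 1205 and 1322 CPM at F21 (log2 fold change -2.67 ± 0.14, adjusted p = 1.36e-10). F15D4.5 (II:13245376-13247774) held 1182 and 1164 CPM, against 5511 and 5284 CPM at F6 and 5321 and 5359.8 CPM at F21 (log2 fold change -2.19 ± 0.16, adjusted p = 9.27e-09). In all 3 genes the mutant libraries stood alone below the 10 others, and HC125 lay close to the non-array lines.

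The other members moved less. lin-15B, a chromatin regulator gene, fell by 1.58 on the log2 scale, and here HC125 was lower too (-0.66, adjusted p = 0.0101). bath-45 fell by 0.82 and eri-6, a helicase gene of endogenous RNAi, by 0.44. F37D6.3 rose by 0.46, a call that was lost when either mutant library was left out or with F6 as the only reference. lir-1 was not called (-0.07). sosi-1 lies within the eri-6 and eri-7 region, and without the strand setting reads from overlapping genes there cannot be told apart.

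Targets of the ERGO-1 class, whose primary small RNAs are bound by the Argonaute ERGO-1, had the largest share of lower members among the lists with 15 or more tested genes. Of 19 tested members, 15 were lower (78.9%, beside 12.2% over all genes), 1 was higher and 3 were not called. The median was -1.14. C18D4.6 (V:17535586-17538375) held 92.4 and 38.8 CPM in the mutant, against 773 and 669 CPM at F6 and 766 and 629.9 CPM at F21 (log2 fold change -3.42 ± 0.29, adjusted p = 1.39e-06). The mutant libraries differed from each other there but both lay far below the rest. F55C9.5 fell by 1.79 and its neighbour F55C9.3 by 1.14 on the log2 scale. Larger drops with wider errors were seen at F39F10.4 (-3.44 ± 0.68) and E01G4.5 (-3.13 ± 0.65), and K02E2.6 fell by 0.92 at a higher level, with 1393 and 1083 CPM in the mutant, against 2181 to 2574 CPM in the non-array lines. The exception was Y43F8B.9, which rose by 1.03 ± 0.15. In HC125 against the non-array lines the median over these genes was -0.19. With 1 mutant library the count of lower members dropped to 8 (without hrde-1;HC125 replicate 1) and 7 (without hrde-1;HC125 replicate 2).

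**Figure D4:**
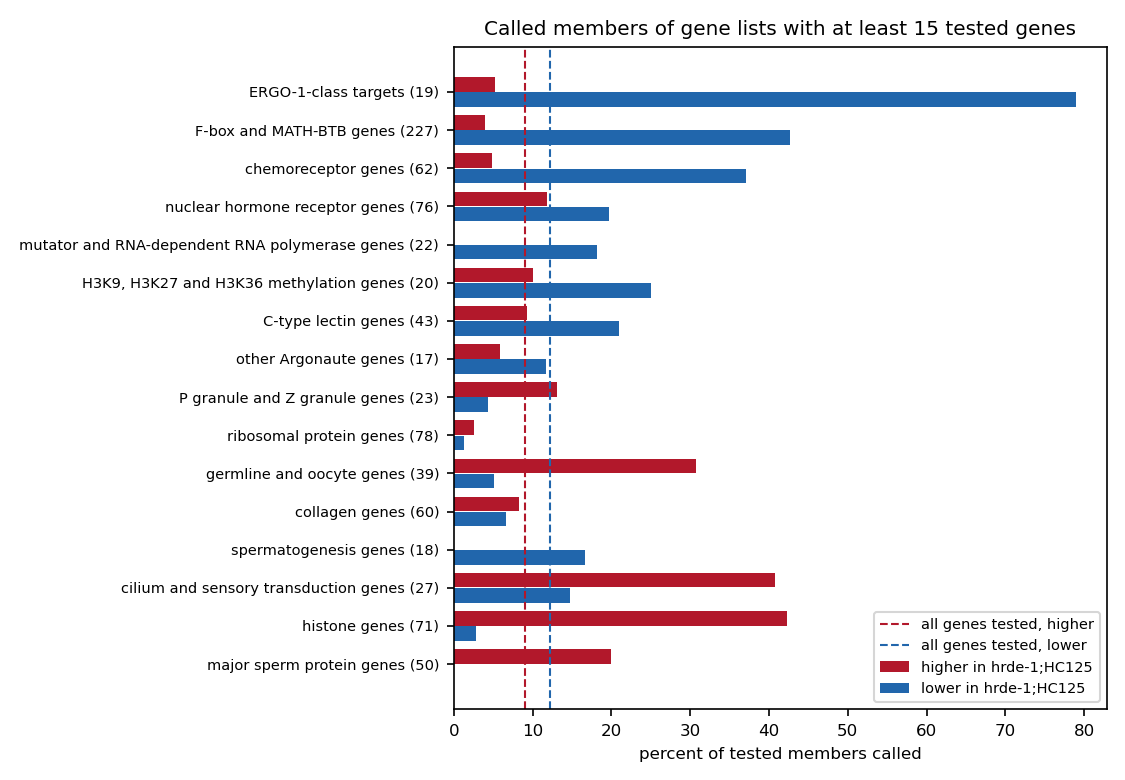
Percent of tested members called higher (red) and lower (blue) in hrde-1;HC125 for lists with at least 15 tested genes, the number tested in brackets, with dashed lines at the shares over all genes tested (9.03% and 12.2%). ERGO-1-class targets, F-box and MATH-BTB genes and chemoreceptor genes have lower shares above the line, and histone and germline genes have higher shares above it. In the cilium bar at least 3 of the 11 higher genes entered the test through the mutant libraries alone.

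Genes of the RNAi machinery named here had few higher calls beside the 9.03% higher over all genes tested. Lower calls took 10% to 18.2% of each list, on both sides of the 12.2% over all genes tested. Among 10 nuclear RNAi factor genes edgeR called hrde-1 alone in the fit of 12 libraries. DESeq2 called 1 of the 10 higher and 1 lower, and edgeR with only the 6 libraries compared called 1 higher and 2 lower. In the fit of 12 libraries the partners nrde-1, nrde-2, nrde-3 and nrde-4 had log2 fold changes of -0.02, 0.29, -0.16 and -0.09. Among 17 other Argonaute genes, wago-1 rose (log2 fold change 0.70 ± 0.11, adjusted p = 0.000179), with 339 and 349.7 CPM in the mutant, against 207 to 227 CPM in the non-array lines. wago-5 (-0.80) and sago-1 (-1.67) were lower with adjusted p = 0.0408 and 0.0431, and both calls were lost under DESeq2. Of 22 mutator and RNA-dependent RNA polymerase genes, 4 were lower (18.2%) and 18 were not called. rrf-2, one of the polymerases, held 78.5 and 61.5 CPM, against 161 to 182 CPM (log2 fold change -1.32 ± 0.18, adjusted p = 2.68e-05), and the helicase genes rde-12 and drh-3 fell by 0.56 and 0.43. Of 12 Dicer and ERI complex genes, 2 were lower (16.7%): parn-1, an exonuclease gene of piRNA trimming, fell by 0.68 and eri-7 by 0.99. The calls of wago-5, drh-3 and eri-7 were lost when either mutant library was left out, and that of rde-12 was lost without hrde-1;HC125 replicate 1.

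Of 5 systemic RNAi genes with enough counts, rsd-3 rose by 0.90 ± 0.26, a call lost when either mutant library was left out, without F6 replicate 1 and with F6 as the only reference. sid-3 (0.18), rsd-2 (-0.17) and rsd-6 (-0.37) were not called. Among 23 P granule and Z granule genes, 3 were higher (13%, beside 9.03% over all genes) and 1 was lower (4.35%, beside 12.2%). meg-4, a P granule protein gene, fell by 1.81, while cgh-1, a germ granule helicase gene, rose by 0.92 ± 0.13 and deps-1, another P granule protein gene, by 0.36 ± 0.11, a call lost when any 1 of the 6 compared libraries other than F21 replicate 2 was left out. Of 20 genes that set, remove or read H3K9, H3K27 or H3K36 methylation, 5 were lower (25%, beside 12.2% over all genes). Another 2 were higher (10%, near the 9.03% over all genes). The H3K27 demethylase gene jmjd-3.1 held 377 and 354 CPM, against 655 to 834 CPM (log2 fold change -1.10 ± 0.16, adjusted p = 7.2e-05). The demethylase gene jmjd-2 rose by 0.74 ± 0.13. set-30 had 0 counts in both mutant libraries and 32 over the non-array libraries, at least 9.38-fold lower in the mutant. The H3K9 methyltransferase gene set-25 fell by 0.46, and met-2, another one, was not called, with 316 and 328 CPM in the mutant, against 301 to 349 CPM in the non-array lines. In these lists of RNAi, granule and chromatin genes, counts of 5 or fewer moved by up to 3 genes when 1 library was left out.

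Germline and oocyte genes leaned to more small RNAs. Of 39 tested, 12 were higher (30.8%, beside 9.03% over all genes) and 2 lower, with a median of 0.24. The median in HC125 against the non-array lines was -0.02. The Pumilio-family genes puf-11 and puf-3 and the embryonic polarity gene mex-5 led by adjusted p. puf-11 held 749.8 and 818 CPM in the mutant, against 449.5 to 527 CPM in the non-array lines (log2 fold change 0.73 ± 0.14, adjusted p = 0.00119), and both mutant libraries lay above all 10 others. mex-5 rose by 0.67 ± 0.14 and puf-3 by 0.70 ± 0.15. The exceptions were glp-1, the germline Notch receptor gene, and cpb-1, both called lower with log2 fold changes of -0.45 and -0.49. In whole animals more cells of a type and more small RNA per cell cannot be told apart. Of the higher members, 6 were left without hrde-1;HC125 replicate 1, 3 without replicate 2 of the mutant, 7 without F6 replicate 1, 7 with F6 alone as reference and 4 with F21 alone.

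Of 18 spermatogenesis genes, 3 were lower (16.7%, beside 12.2% over all genes) and 15 were not called. The median over the 18 was 0.43 in the mutant and 1.00 in HC125, both against the non-array lines. The summed level went the other way from this median, with 233 and 181 CPM in the mutant and 253 to 437 CPM in HC125, against 259.7 to 327 CPM in the non-array lines. spe-41, a sperm calcium channel gene (III:3439011-3444210), held 8.72 and 5.93 CPM in the mutant, against 52.3 and 74.8 CPM at F6 and 63.1 and 50.5 CPM at F21 (log2 fold change -3.03 ± 0.24, adjusted p = 2.87e-08). fer-1, needed for sperm membrane fusion (I:8623012-8631202), held 6.87 and 4.04 CPM, against 57.7 and 55.9 CPM at F6 and 62.9 and 71.9 CPM at F21 (log2 fold change -3.41 ± 0.32, adjusted p = 8.74e-07). At both genes HC125 and N2 lay with the non-array lines. spe-15 fell by 0.85, a call lost with F6 alone as reference and without hrde-1;HC125 replicate 2.

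Of 50 major sperm protein genes tested, 10 were higher (20%, beside 9.03% over all genes) and 40 were not called, with a median of 1.24. msp-45 held 37.2 and 29.1 CPM in the mutant and 16 to 58.1 CPM in HC125, against 8.71 to 11.5 CPM in the non-array lines (log2 fold change 1.70 ± 0.41, adjusted p = 0.00843). The sperm-specific family genes ssp-19 and ssp-31 rose by 1.50 ± 0.35 and 2.03 ± 0.52. These 3 calls were lost without hrde-1;HC125 replicate 1 and with F21 alone as reference. HC125 against the non-array lines had a median of 1.13 over the same genes. Their summed level was 1736 and 1108 CPM in the mutant and 745.7 to 2260.2 CPM in HC125, against 515 to 1036 CPM in the non-array lines, and it was 1098 and 3219 CPM in N2. The mutant lay above the non-array lines but inside the range of HC125. The count of higher members was 38 with only the 6 libraries in the fit, 5 with library size alone as the scaling, 5 without F21 replicate 1, 3 without F6 replicate 1, F6 replicate 2 or hrde-1;HC125 replicate 2, and 0 without hrde-1;HC125 replicate 1 or with F21 alone as reference.

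Histone genes also leaned to more small RNAs than in the non-array lines. Of 71 tested, 30 were higher (42.3%, beside 9.03% over all genes) and 2 lower, with a median of 0.78. HC125 against the non-array lines had a median of 0.53 and 4 calls. Their summed level was 9865 and 9454 CPM in the mutant and 8462 to 13881 CPM in HC125, against 7601 to 8779 CPM in the non-array lines, and it was 11445 and 9425 CPM in N2. The ranges of HC125 and of N2, both with wild-type hrde-1, took in values of the mutant's size. his-67 rose by 1.15 ± 0.16 and his-17 by 1.10 ± 0.17. The linker histone gene his-24 went the other way, with 1837 and 1852 CPM in the mutant, against 3478 and 3181 CPM at F6 and 3153 and 3390.4 CPM at F21 (log2 fold change -0.84 ± 0.12, adjusted p = 7.1e-05), and it stayed outside the range of HC125 (3037 to 3462 CPM). Copies of core histone genes are near identical, so reads may have been split between them. Leaving out hrde-1;HC125 replicate 1 left 9 higher histone genes, and leaving out replicate 2 of the mutant left 19.

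Marker lists of somatic tissues were short. Their median log2 fold changes were 0.10 (muscle), 0.09 (intestine), 0.41 (hypodermis and cuticle) and 0.74 (neuron), beside 0.03 over all genes tested. In HC125 against the non-array lines these medians were 0.34, 0.39, 0.31 and 0.10. Of 8 muscle genes unc-54 was higher (12.5%, beside 9.03% over all genes). Another, lev-11, the tropomyosin gene, was lower (12.5%, beside 12.2%), at -1.28 ± 0.25. Of 7 intestine genes and 3 hypodermis and cuticle genes 0 were called by edgeR in the fit of 12 libraries and 0 by DESeq2, with 0 intestine genes and 1 hypodermis and cuticle gene at an unadjusted p under 0.05. With only the 6 libraries compared, edgeR called 1 hypodermis and cuticle gene higher. In the fit of 12 libraries 1 of 5 neuron genes, the synaptic vesicle gene rab-3, was higher (1.33 ± 0.34), a call lost without hrde-1;HC125 replicate 2 and with F6 alone as reference, with HC125 replicate 1 at 15.1 CPM. The intestine list summed to 1135 and 1497 CPM in the mutant, against 690.1 to 1542 CPM in the non-array lines. The neuron list summed to 82.2 and 96.2 CPM in the mutant and 56.9 to 75.3 CPM in HC125, against 60.3 to 68.1 CPM. Ribosomal protein genes, a list of abundant housekeeping genes, had 2 higher (2.56%, beside 9.03% over all genes) and 1 lower (1.28%, beside 12.2%) of 78. rla-0 and rpl-12 were higher by 0.60 and 0.71, and rpl-11.2 was lower with a log2 fold change of -4.07 and a wide spread (64.2 to 132 CPM in the non-array lines). The first 2 calls were lost without hrde-1;HC125 replicate 2, and the last was lost without replicate 1 of the mutant. These lists count small RNAs and do not mark cell numbers by themselves.

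Large changes in both directions were seen at genes of cilia and sensory transduction. Of 27 tested, of 64 in the list, 11 were higher (40.7%, beside 9.03% over all genes) and 4 lower (14.8%, beside 12.2%). The lower share was thus near that over all genes. Of the 11, 3 stayed under the filter level in all other libraries and entered the test through the mutant libraries alone. They could hardly have come out otherwise, which leaves 8 higher of 24. The filter needs 2 libraries, so members above that level in a lone other library also relied on the mutant and stay in the 24. Besides tax-4 and bbs-5, osm-9, a sensory channel gene, held 320.4 and 243 CPM in the mutant, against 6.45 and 6.3 CPM at F6 and 8.3 and 17.5 CPM at F21 (log2 fold change 5.18 ± 0.25, adjusted p = 1.43e-10), and HC125 held 8.6 to 13.9 CPM. ift-20, a gene of intraflagellar transport, rose by 6.55 ± 0.41 and klp-20, a kinesin-II subunit gene, by 2.70 ± 0.15. trp-4 fell as given above, and the receptor guanylyl cyclase gene odr-1 fell by 0.96. Most of the 64 were too low to test, so the counts do not describe the whole list. Without hrde-1;HC125 replicate 1 the higher count was 7.

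Chemoreceptor genes leaned to losses. Of 62 tested, of 1294 in the list, 23 were lower (37.1%, beside 12.2% over all genes) and 3 higher, with a median of -0.71. The median in HC125 against the non-array lines was -0.23. Some copies share their counts, srd-71 and srd-73 among them, and the 62 genes are 59 distinct count rows with 21 lower. At srd-71 and srd-73 N2, with wild-type hrde-1, was about as low as the mutant (4.49 to 6.66 CPM and 0 CPM). srh-171 (V:19965700-19972559) held 1.84 and 0.809 CPM in the mutant, against 76.8 and 72.1 CPM at F6 and 67.2 and 85.5 CPM at F21 (log2 fold change -5.64 ± 0.29, adjusted p = 1.65e-10). srg-34 held 9.72 and 6.74 CPM, against 50.5 to 89.4 CPM (log2 fold change -3.16 ± 0.25, adjusted p = 3.52e-08). Leaving out a mutant library left 15 (replicate 1) or 14 (replicate 2) lower members, and 13 were left under the stricter low-count filter.

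F-box and MATH-BTB genes, large families of C. elegans substrate adaptors for protein degradation, held more lower genes than any other list. They were also the list with the most genes tested. Of 227 tested, 97 were lower (42.7%, beside 12.2% over all genes) and 9 higher, with a median of -0.83. The median in HC125 against the non-array lines was -0.20. By subfamily, 34 of 63 fbxb genes, 39 of 80 fbxa genes and 9 of 28 fbxc genes were lower. fbxa-120 (X:17302719-17304036) held 41.1 and 33.2 CPM in the mutant, against 514 and 518 CPM at F6 and 448 and 469 CPM at F21 (log2 fold change -3.71 ± 0.19, adjusted p = 1.65e-10). math-1 held 42.2 and 42.6 CPM, against 216 to 238 CPM (log2 fold change -2.44 ± 0.15, adjusted p = 1.84e-09), and fbxa-118 fell by 2.10 on the log2 scale. All 3 genes had both mutant libraries below the other 10. Many members are close paralogs, and reads shared between copies may have been counted in either. Without hrde-1;HC125 replicate 2 the lower count was 60.

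The other large families were mixed. Of 76 nuclear hormone receptor genes, 15 were lower (19.7%, beside 12.2% over all genes) and 9 higher (11.8%, beside 9.03%). The median was -0.17 in the mutant and -0.21 in HC125, both against the non-array lines. nhr-61 (II:14816136-14818543) held 1267 and 1106 CPM in the mutant, against 17.4 and 10.7 CPM at F6 and 10.2 and 7.78 CPM at F21 (log2 fold change 6.59 ± 0.32, adjusted p = 1.43e-08), nhr-8 rose by 2.23 ± 0.24 and nhr-15 fell by 2.21. Of 43 C-type lectin genes, 9 were lower and 4 higher (8 and 4 of 41 distinct count rows, since clec-209 has copies that share counts), among them clec-12 (-3.03), clec-238 (-2.90) and clec-157 (3.84). Of 60 collagen genes, 5 were higher and 4 lower, shares below those over all genes. col-162 (-4.83) and col-161 (-4.38) were lower and col-111 (1.02) was higher. Among 8 transformation marker genes with enough counts, unc-54 was higher (12.5%, beside 9.03% over all genes). In the same list lin-15B and lin-15A (-1.02), which overlap each other on X, were lower (25%, beside 12.2%). The lin-15A call was lost when either mutant library was left out.

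Of the 5 genes with the most small RNAs, 4 rose. Y52B11A.18 (I:11059299-11061435) held 43985 and 49293 CPM in the mutant, against 14973 to 17631 CPM in the non-array lines (log2 fold change 1.51 ± 0.36, adjusted p = 0.013). HC125 spread from 7573 to 22662 CPM, and the call was lost when either mutant library was left out and with F6 alone as reference. B0250.8 held 14900.3 and 13602 CPM, against 4586 to 5229.8 CPM (log2 fold change 1.50 ± 0.16, adjusted p = 1.21e-06), with HC125 at 3443 to 5289.5 CPM. W09C5.12 and C47G2.8 rose by 0.98 ± 0.12 and 0.81 ± 0.14, whereas F37H8.2 fell by 0.80.

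Losses were uneven along the genome. Each chromosome was divided into 3 parts of equal length up to its last annotated gene. In the outer parts 16.2% of 6413 genes were lower, against 5.58% of 3926 genes in the middle parts. Higher calls were 9.40% in the outer and 8.33% in the middle parts. HC125 against the non-array lines had 0.515% of genes called in the outer and 0.357% in the middle parts. The lower share was greater in the outer parts on each of the 6 chromosomes. It was also greater in each of 5 bins of non-array level, for example 27.5% against 10.7% in the most abundant bin and 15.8% against 2.20% in the second lowest. On X 23.8% of 990 genes were lower and 3.84% higher, against 10.9% and 9.54% of 9349 autosomal genes. HC125 against the non-array lines also had more calls on X, with 1.72% of genes called there, against 0.321% on the autosomes. Genes on X had less small RNA, with a median of 9.92 CPM in the non-array lines, against 28.5 CPM on the autosomes. Pseudogenes were lower at 71 of 241 (29.5%), against 11.7% of 10094 protein-coding genes, while HC125 against the non-array lines had 0.415% and 0.456% called.

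**Figure D5:**
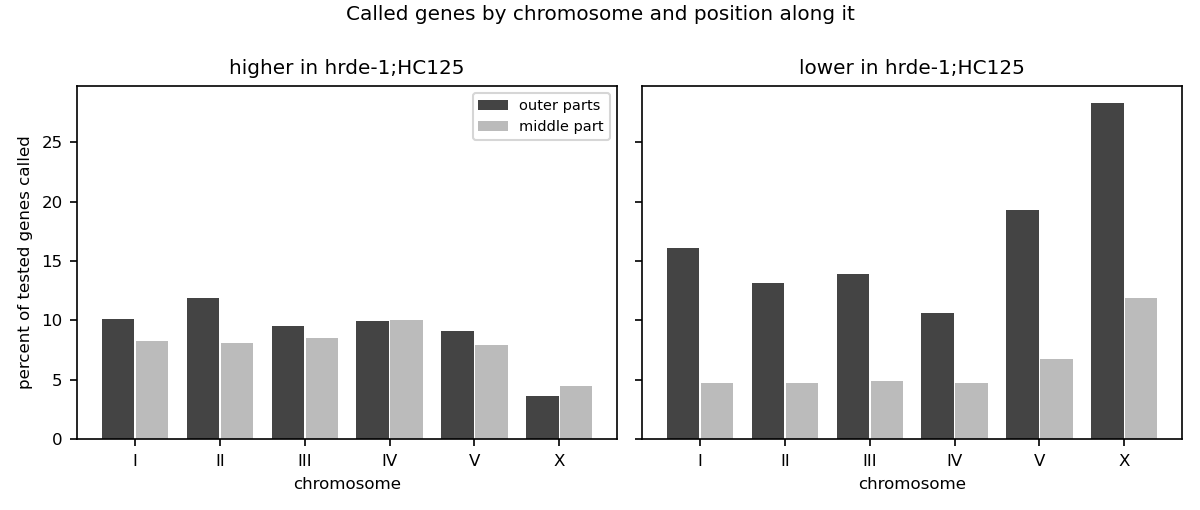
Percent of tested genes called higher (left) and lower (right) in hrde-1;HC125, by chromosome, for the 2 outer of 3 equal parts (dark) and the middle part (light). Lower calls are more frequent in the outer parts of all 6 chromosomes and reach their highest share on X, while higher calls differ less between parts.

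Called genes also lay next to each other. Of 1255 lower genes with a place on a nuclear chromosome, 45.5% had an adjacent tested gene that was lower too, and 21.5% of all tested genes had such a neighbour. For 930 higher genes the values were 27.2% and 16.7%. Adjacent genes can share overlapping reads, since the strand setting is not given. A run of 8 lower genes on III:1215995-1262842 held 5 fbxa genes, with log2 fold changes from -2.94 to -1.06. A run of 7 on II:2032316-2046656 held bath-19, bath-20, bath-24, btb-4 and math-1. The longest run of higher genes had 6 members on V:14826948-14880539, nspa-1, nspa-5 and nspa-8 among them.

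The longest run, 27 lower genes on V:2345676-2564645, showed a different order of groups. It is a duplicated segment, so 18 of its genes share counts with a copy and only 18 distinct count rows remain, and each member is uncertain by itself. Summed over the segment, small RNAs came to 233 and 214 CPM in hrde-1;HC125 and 969 to 1989 CPM in HC125, against 1217 to 1316 CPM in the non-array lines. N2 held 415 and 382 CPM. srd-71, a chemoreceptor gene of the segment, held 4.69 and 7.28 CPM in the mutant and 92.5 to 143 CPM in HC125, against 114 to 144 CPM in the non-array lines, while N2 held 4.49 to 6.66 CPM. The mutant thus lay at the N2 level at srd-71, below HC125 and the non-array lines, and wild-type hrde-1 libraries were found at both levels. Over the 27 genes the median log2 fold change was -3.09 in the mutant and -0.09 in HC125, both against the non-array lines.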

How the data were processed

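The authors deposited 1 table of raw counts per gene, made from 21 to 26 nt reads per the file headers, and Bowtie2 and HTSeq are named in the submitters' processing notes. Libraries were made after a polyphosphatase step and amplified for 12 cycles, per the labels' protocols. No source used here gives versions, the build, the strand setting or how multiply matching reads were handled. Names and coordinates come from the Ensembl release 115 annotation of WBcel235, matched by gene ID (20194 of 20541 IDs). The genome positions need not be those of the authors' build. Of the IDs, 18202 had a count.

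Counts were tested in R 4.3.3 with edgeR 4.0.16 (filterByExpr with a minimum count of 10 and minimum total of 15, TMM scaling, robust quasi-likelihood F test, two-sided). The 12 libraries entered as 4 groups, with F6 and F21 pooled, so that small groups borrow their spread from the rest (8 residual degrees of freedom). A call is a Benjamini-Hochberg adjusted p under 0.05 over the 10470 genes tested. Standard errors (SE) come from the F statistic. A group with 0 counts was set to a floor of 3 counts over the group for a lower bound on a fold, and 1 to 3 counts were given an exact Poisson ratio interval (95%). Amplified reads were not collapsed to molecules, so both cover counting error only. The test was tried on simulated data with 200 changed genes.

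Members of the 25 gene lists came from general knowledge, and the lists and the comparison itself were chosen with earlier results of these data known. Named genes were hrde-1 and sid-1, up to 8 rises and 8 falls outside the range of the 10 other libraries and up to 4 of each with HC125 on the same side, all with at least 20 CPM in the higher group. Up to 3 called members of each list by adjusted p and the 5 most abundant genes were added. List members named beside these were chosen after their values were seen. Same-numbered libraries were checked for pairing and share only a number. Replicate libraries differed by more than counting noise, so none was merged. The 2 libraries of HC125 labelled 5′-dependent were not analysed here. No sequences are printed.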

Additional observations from a re-analysis of the deposited data

Results flagged for a closer look

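At sid-1 the 2 parts of the pooled group differed from each other, with F6 above F21 by 2.54 on the log2 scale (adjusted p = 1.57e-07 with F6 and F21 as groups of their own). This is the silenced state that the labels give for F6 and not for F21.

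In 170 groups of 4 libraries, 2 for each named gene, 17 had 1 library far from the other 3, and chance alone flags about 1 in 20 such groups. Some flags rest on 1 or 2 counts, since any count stands apart where the other 3 libraries are at 0. Among genes with almost no small RNAs in hrde-1 wild type, HC125 replicate 2 held 1.70 CPM (2 counts) at tax-4, where the other 3 HC125 libraries were at 0. HC125 replicate 1 held 2.15 CPM, which is 1 count, at C07G1.7 and also 2.15 CPM at ZK228.10. F21 replicate 1 held 0.268 CPM at C07G1.7, which is 1 count.

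F21 replicate 2, the shallow library, stood apart in the non-array group at 6 genes. It was low at K08D10.13 (62.2 CPM, others 97.4 to 101.6), jmjd-3.1 (655 CPM, others 813 to 834), clec-238 (52.5 CPM, others 95.5 to 101) and B0250.8 (4586 CPM, others 5187 to 5229.8). It was high at the collagen genes col-162 (83.6 CPM) and col-161 (58.3 CPM). At none of these 6 genes did its value reach those of hrde-1;HC125. F6 replicate 2 was low at spe-15 (20.6 CPM), col-111 (385 CPM) and C47G2.8 (5042 CPM).

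HC125 replicate 1 was high within HC125 at meg-4 (68.8 CPM), rab-3 (15.1 CPM), clec-157 (10.8 CPM) and lin-15A (36.6 CPM).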

How the results depend on the processing

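Of 83 named genes called besides hrde-1, 65 kept their call under each of the 18 alternative fits in which they could be tested, 18 lost it in at least 1, and none turned its direction. hrde-1 stayed lower in all of them. With only the 6 libraries compared, 1559 genes were called higher. That fit with a replicate block gave 1542 higher and 3246 in all, against 3297 without it, and left sid-1 at -2.31. Same-numbered libraries did not deviate together (correlations of -0.01, -0.01 and 0.03), so the numbers do not pair them. With F21 alone as reference, 619 genes were higher, HC125 against the non-array lines gave 26, and sid-1 was -0.52. With F6 alone sid-1 was -3.06, and with 5 groups it was -1.79. DESeq2 gave sid-1 -2.27 and 237 genes for HC125 against the non-array lines, and no filter gave 112. For 2 fits chosen after seeing the data, the 8 libraries without N2 and HC125 replicates 1 and 2 gave 3377 called, 1539 higher and 333 for HC125, and the 2 groups without F21 replicate 2 gave 3538 called, 1621 of them higher. The stricter rule on HC125's side, also chosen later, left 57.

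Leaving out 1 library at a time gave 1339 to 2186 called genes, 534 to 937 higher, 755 to 1249 lower, 1261 to 1714 outside the 10 others and 162 to 400 on HC125's side. HC125 against the non-array lines gave 16 to 56, and sid-1 ranged from -2.62 to -1.86. Library size alone as scaling gave 823 higher and 1426 lower. Counts that need HC125 or N2 have no value in fits without them. The cause of these shifts was not tested. Depth limits low genes, since 3 counts in F21 replicate 2 came to 5.83 CPM.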
